A study of Mus musculus with 18 samples.

Results

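Bulk RNA sequencing of mouse kidney was examined for 10 genes of the NRF2 antioxidant system, chosen by gene symbol from the 32675 genes of the deposited table. They are Nfe2l2 (which encodes NRF2), Keap1, Nqo1, Gclc, Gclm, Txnrd1, Srxn1, Cat, Sod2 and Gpx3, and each had 1 row in the table and passed the filter on low counts. Right kidneys came from 18 male wild-type C57BL/6 mice in 3 groups of 6. The mice were 6 weeks old when bought, before acclimatization and the 14 days of the procedure. Ctrl mice were handled daily and were not defeated. Mice of the PBS and FLX groups underwent chronic social defeat stress (CSDS), in which a CD-1 aggressor was met for 10 min daily over 14 days. The PBS group was injected daily with phosphate-buffered saline, and the FLX group with fluoxetine, a selective serotonin reuptake inhibitor, at 10 mg per kg. No group received fluoxetine without defeat, and injection of the Ctrl mice is not stated, so that defeat and injection cannot be told apart in comparisons with Ctrl.

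NRF2 is a transcription factor that is held low by KEAP1, an adaptor which hands it to a ubiquitin ligase for degradation. Oxidants and electrophiles modify cysteines of KEAP1, NRF2 then accumulates, pairs with small MAF proteins and binds antioxidant response elements near genes of glutathione synthesis, thioredoxin recycling and quinone detoxification. The kidney tubule, with its dense mitochondria, is rich in such enzymes, and it is the main source of the extracellular glutathione peroxidase of plasma, encoded by Gpx3.

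The element that NRF2 binds has the core TGACNNNGC. It was searched on both strands in RefSeq promoter windows of 300 bases (250 before to 50 after a gene's start, GRCm38.p6), which were at hand for 9 of the 10 genes in 11 windows. Gclc had no entry. The core was found in 4 of the 11 windows, those of 4 genes, and in 12.4% of all 32851 windows of this length. The 4 matches are printed 5′ to 3′ in the direction of the gene, to show where the core lies in genes described below, with the core in capitals. For Gclm, Txnrd1 and Srxn1 the core lies on the opposite strand, so the capitals show its reverse complement.
Nfe2l2, chr2:75704885-75704913, minus strand, 240 bases upstream of the start: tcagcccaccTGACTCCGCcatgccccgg
Gclm, chr3:122245413-122245441, plus strand, 134 bases upstream: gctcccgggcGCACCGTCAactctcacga
Txnrd1, chr10:82859104-82859132, plus strand, 92 bases upstream of 1 of its starts: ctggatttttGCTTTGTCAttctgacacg
Srxn1, chr2:152105542-152105570, plus strand, 28 bases downstream: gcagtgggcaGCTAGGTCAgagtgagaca
These are letter matches in short windows, and no binding was measured.

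Levels are given as FPKM, the authors' deposited measure of fragments scaled to transcript length and to the mapped reads of a library, as mean ± SD. Group differences are log2 fold changes from edgeR's quasi-likelihood test on the deposited estimated counts, in 1 fit over the 3 groups and 20251 genes with p-values adjusted by the Benjamini-Hochberg method, and a gene is said to rise or fall at an adjusted p under 0.05. Total counts per mouse ranged over 73000203 to 78650116 (Ctrl), 72149987 to 78711121 (PBS) and 48928823 to 79061296 (FLX). The members had 2101 counts (Keap1) or more in every mouse. PBS replicate 6 stood apart, with 3969 FPKM summed over 5 injured tubule markers against 541.1 to 937.5 in the other PBS mice, and 879 over 8 proximal tubule markers against 1484 or more. It is taken to be the PBS mouse that the study deleted without naming it, so the fit holds 5 PBS mice and results over all 6 are added. Ctrl replicate 3 also stood apart, because the genes called between PBS and Ctrl went from 772 to 1662 without it. Markers of kidney tubule were present, with Slc34a1 between 361.8 and 912.0 FPKM and Umod between 694.7 and 1259 in all 18 mice.

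In Ctrl kidneys the 10 genes covered more than 3 orders of magnitude. Gpx3 was at 11716 ± 1428 FPKM (SD, n = 6), the third highest mean of all 32675 genes. Cat, which encodes the peroxisomal catalase that splits hydrogen peroxide, followed at 235.0 ± 29.5 FPKM. Gclc, the catalytic subunit of the enzyme that makes the first bond of glutathione, was at 67.6 ± 10.7 FPKM, and Nqo1, a quinone reductase, at 50.5 ± 8.11. Their Ctrl ranges, 58.2 to 82.8 and 39.2 to 62.1 FPKM, overlapped. Gclm, the modifier subunit that pairs with Gclc, was at 38.9 ± 2.19 FPKM, so that Ctrl mice held 1.73 ± 0.206 times as much Gclc as Gclm per length. Sod2, the mitochondrial superoxide dismutase, was at 24.6 ± 0.815 FPKM. Srxn1, the sulfiredoxin that repairs overoxidized peroxiredoxins, was at 20.04 ± 1.83 FPKM. Txnrd1, the cytosolic thioredoxin reductase, at 18.3 ± 1.13, and Nfe2l2, at 18.1 ± 1.08, were not separated from each other. Keap1 was lowest, at 7.08 ± 0.576 FPKM.

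**Figure D1:**
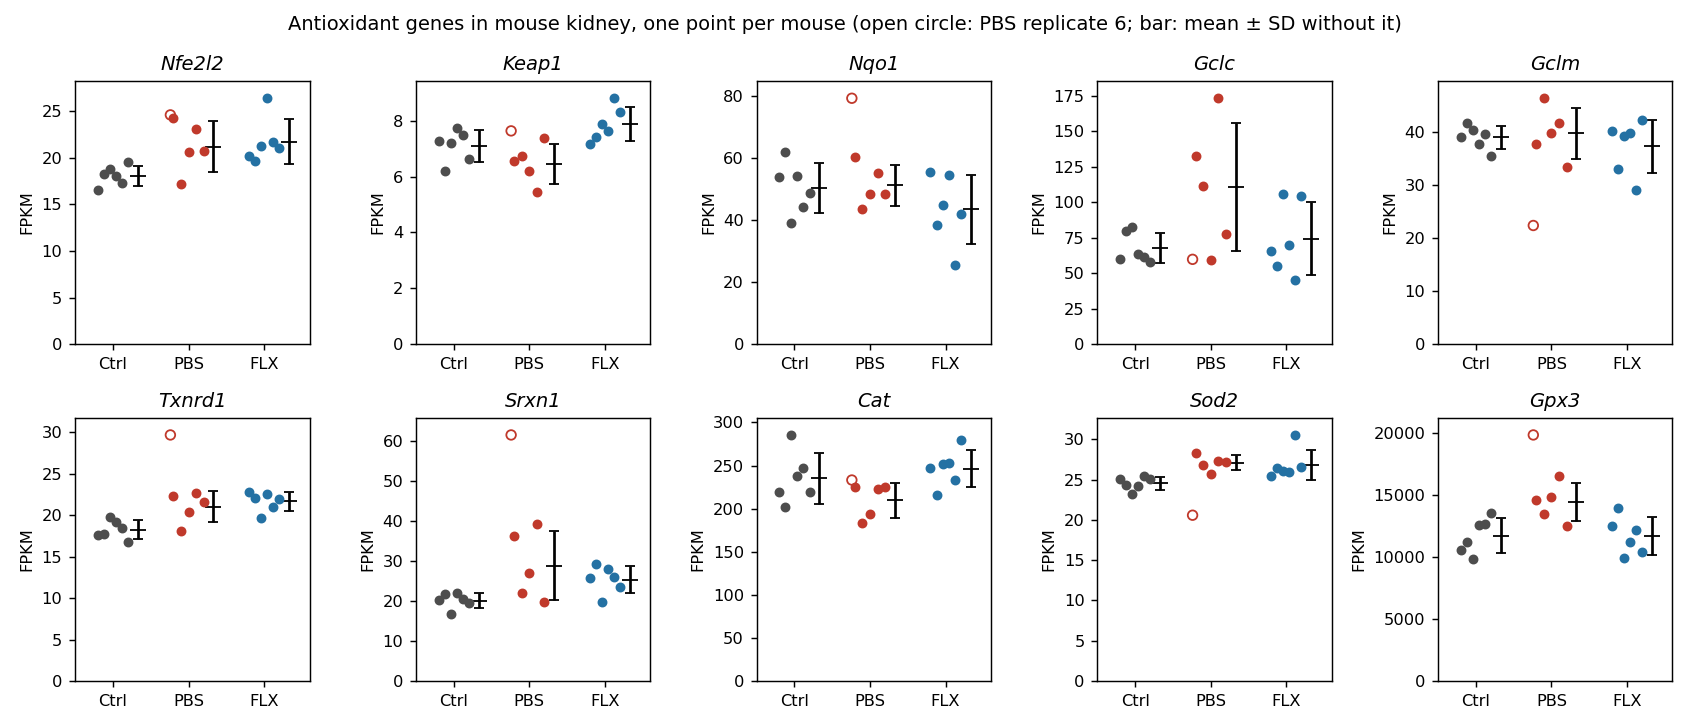
FPKM of the 10 NRF2 antioxidant genes in each mouse (vertical axis, starting at 0), by group, with the mean ± SD beside the points and PBS replicate 6 as an open circle that the mean leaves out. Gclc and Srxn1 spread widely among PBS mice, from 59.3 to 173 and from 19.8 to 39.2 FPKM, while Sod2 was at 25.7 to 28.3 in PBS replicates 1 to 5.

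After defeat without fluoxetine, none of the 10 genes passed an adjusted p under 0.05 in PBS versus Ctrl, where 3.81% of the 20251 tested genes did. Of the 10 members, 6 had an unadjusted p under 0.05, against 17.9% of all genes, and all 6 were higher in PBS mice, against 9.18% of all genes that were higher at this p. These were Gclc, Srxn1, Gpx3, Nfe2l2, Txnrd1 and Sod2. The median log2 fold change of the 10 genes was 0.18, beside -0.01 over all genes. None passed the study's threshold (unadjusted p under 0.05 and an absolute log2 fold change over 1), which 3.28% of genes passed. With DESeq2 in place of edgeR 1 of the 10 genes, Srxn1, was called, and with all 6 PBS mice it was again Srxn1.

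Srxn1 had the lowest p of the 10. It was between 16.8 and 21.9 FPKM in Ctrl mice (median 20.2), and PBS replicates 1 to 5 were at 36.1, 21.9, 27.0, 39.2 and 19.8. PBS replicates 1, 3 and 4 lay above every Ctrl mouse, replicates 2 and 5 lay within the Ctrl range, and replicate 6 had 61.4 FPKM, the highest value of all 18 mice. The difference was 0.54 on the log2 scale (standard error 0.16, 95% interval 0.19 to 0.88, edgeR adjusted p = 0.0765). Over all 6 PBS mice it was 0.77 (adjusted p = 0.0395), and adjusted p-values over the 29 alternatives went from 0.0218 without PBS replicate 5 to 0.233 without PBS replicate 4. Without PBS replicate 2 the adjusted p was 0.0467. With DESeq2 on the same mice as the main fit the adjusted p was 0.0236. The call on Srxn1 thus depended on the tool and on which PBS mice were kept.

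Of the subunits for glutathione synthesis, Gclc was between 58.2 and 82.8 FPKM in Ctrl mice (median 62.4), and at 132, 111, 59.3, 173 and 77.4 in PBS replicates 1 to 5. PBS replicates 1, 2 and 4 were above all Ctrl mice, and replicate 6 had 59.8 FPKM, within the Ctrl range. Its log2 fold change, 0.74, was the largest of the 10 (standard error 0.26, interval 0.20 to 1.28, edgeR adjusted p = 0.124). Over all 6 PBS mice it was 0.61 (adjusted p = 0.205). It was called in 1 of 29 alternatives, without PBS replicate 3 (adjusted p = 0.0422), and the adjusted p reached 0.364 without PBS replicate 4. Gclm differed by 0.04 (interval -0.18 to 0.26, adjusted p = 0.895), with PBS mice between 33.3 and 46.3 FPKM and Ctrl mice between 35.4 and 41.7. PBS replicate 6 had 22.3 FPKM of Gclm, below all other mice. The FPKM ratio of Gclc to Gclm was 3.50, 2.40, 1.49, 4.17 and 2.32 in PBS replicates 1 to 5 and 2.67 in replicate 6, against 1.55 to 2.06 in Ctrl mice. It exceeded every Ctrl ratio in all PBS mice but replicate 3.

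Gpx3, the secreted peroxidase, was between 9796 and 13520 FPKM in Ctrl mice (median 11909). PBS replicates 1 to 5 were at 14599, 13445, 14859, 16526 and 12491 FPKM, and replicate 6 at 19819. Replicates 1, 3 and 4 of these 5 lay above every Ctrl mouse, and replicate 6 lay above all other mice. Gpx3 differed by 0.30 on the log2 scale (standard error 0.12, interval 0.05 to 0.56, edgeR adjusted p = 0.183) and 0.38 with all 6 PBS mice (adjusted p = 0.107).

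Of the sensor pair, Nfe2l2 was between 16.5 and 19.6 FPKM in Ctrl mice (median 18.2) and at 24.3, 17.2, 20.6, 23.1 and 20.8 in PBS replicates 1 to 5, with 24.6 in replicate 6. All of these but replicate 2 exceeded every Ctrl mouse. Nfe2l2 differed by 0.24 on the log2 scale (standard error 0.09, interval 0.05 to 0.42, edgeR adjusted p = 0.148), and over 29 alternatives the adjusted p went from 0.0488 without PBS replicate 2 to 0.370 without PBS replicate 1. Keap1 differed by -0.13 (interval -0.30 to 0.04, adjusted p = 0.433), with PBS replicates 1 to 5 between 5.43 and 7.37 FPKM. NRF2 is controlled largely through its protein, which was not measured.

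Txnrd1 was between 16.8 and 19.8 FPKM in Ctrl mice (median 18.1) and at 22.4, 18.1, 20.4, 22.7 and 21.6 in PBS replicates 1 to 5, with 29.7 in replicate 6. Only replicate 2 of the PBS mice lay within the Ctrl range. Its log2 fold change was 0.21 (standard error 0.07, interval 0.06 to 0.37, edgeR adjusted p = 0.126). Sod2 was between 23.2 and 25.5 FPKM in Ctrl mice (median 24.7) and at 28.3, 26.8, 25.7, 27.3 and 27.2 in PBS replicates 1 to 5. These 5 did not overlap with Ctrl, an arrangement on the higher side that 1.77% of all genes showed (1.75% on the lower side), but replicate 6, at 20.6 FPKM, lay below every other mouse. The log2 fold change of Sod2 was 0.15 (standard error 0.07, interval 0.002 to 0.29, adjusted p = 0.272), and with all 6 PBS mice 0.08 (adjusted p = 0.659). Nqo1 and Cat did not reach an unadjusted p under 0.05, with log2 fold changes of 0.03 (interval -0.33 to 0.38) and -0.15 (interval -0.34 to 0.04). Nqo1, often used as a readout of NRF2 activity, was between 43.6 and 60.3 FPKM in PBS replicates 1 to 5 and at 79.4 in replicate 6, against 39.2 to 62.1 in Ctrl mice.

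On the FPKM scale, the difference of each member in mean log2(FPKM + 0.1) was also tested by an exact two-sided permutation test over mice, in 30 unadjusted tests over the 3 comparisons, with 0.00216 as the smallest p. In PBS versus Ctrl the exact p was 0.00216 for Sod2, 0.0195 for Txnrd1, 0.0238 for Gpx3, 0.026 for Srxn1, 0.0368 for Nfe2l2 and 0.0628 for Gclc. With all 6 PBS mice the exact p for Sod2 was 0.331.

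Among cell markers in PBS versus Ctrl, 3 of 5 tested neutrophil genes and 1 of 5 injured tubule genes were higher at an edgeR adjusted p under 0.05. So were 1 of 7 brown fat genes, 1 of 8 genes of other kidney segments and 433 of all 20251 genes. None was called among 8 proximal tubule, 6 macrophage, 6 white fat, 5 red blood cell and 2 tested adrenal cortex genes. The 5 injured tubule markers, summed, were between 287.4 and 535 FPKM in Ctrl mice and at 541.1 or more in all PBS mice. Of these genes, Havcr1 was between 0.242 and 0.932 FPKM in Ctrl mice and between 0.346 and 1.66 in PBS replicates 1 to 5. Lcn2 was between 0.474 and 1.82 against 0.985 to 4.42, so both overlapped. In PBS replicate 6 Havcr1 was at 9.75 and Lcn2 at 49.2 FPKM, of a sum of 3969. Both made up little of the sums, which rest mostly on the other genes of the list, Vcam1, Krt20 and Spp1. All 5 injured tubule genes had an edgeR log2 fold change above 0, with 3 at an unadjusted p under 0.05. The 8 neutrophil markers summed to 1.2 to 3.201 FPKM in Ctrl mice against 6.88 to 25.5 in PBS replicates 1 to 5. Ngp and Camp of that list were at 0 in all Ctrl mice. PBS replicate 4, highest of the 5 mice in Gclc, Srxn1 and Gpx3, was also highest of them in both marker sums. Brown fat markers reached 800.9 FPKM in PBS replicate 5, against 39.05 to 129 in replicates 1 to 4, and PBS replicate 5 had the lowest Srxn1, Gclm and Gpx3 of the 5. The part of these cells in the values of the antioxidant genes was not tested, and in whole kidney more RNA per cell and more cells of a type cannot be told apart.

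**Figure D2:**
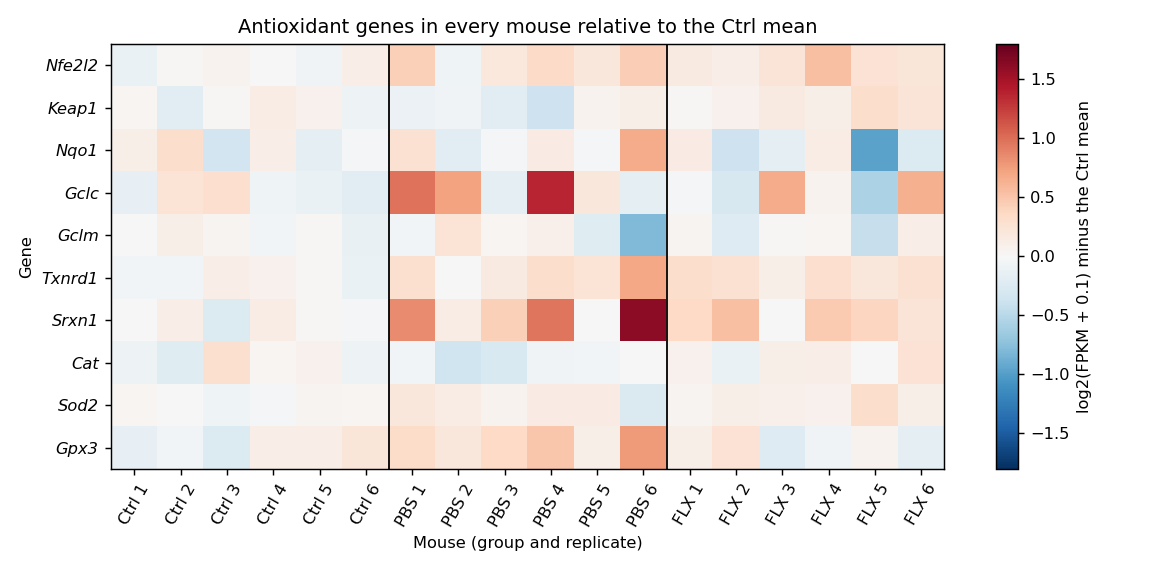
Difference of each gene's log2(FPKM + 0.1) from its Ctrl mean (colour, red higher and blue lower), with genes in rows and all 18 mice in columns. Srxn1 reached 0.85 and 0.97 in PBS replicates 1 and 4 and 1.62 in PBS replicate 6, where Gclm was at -0.80, and Nqo1 was at -0.97 in FLX replicate 5.

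With fluoxetine during defeat, again none of the 10 genes passed an adjusted p under 0.05 in FLX versus PBS, where 0.726% of all genes did. Unadjusted, 3 of 10 had a p under 0.05, against 11.1% of genes: Gclc and Gpx3 were lower in FLX mice (5.38% of all genes were lower at this p) and Keap1 was higher. The median log2 fold change of the 10 was -0.15, beside -0.003 over all genes, and 8 of the 10 were below 0. None passed the study's threshold, which 1.9% of genes passed. DESeq2 called 1 of the 10, Gpx3. The FPKM ranges of FLX and PBS mice overlapped for all 10 genes, while 2.45% of all genes were higher and 0.469% lower without overlap. This comparison shares the PBS mice with the one above, so the values of both are given side by side and are not independent.

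Gpx3 was between 9876 and 13970 FPKM in FLX mice (median 11669). FLX replicate 2 lay inside the PBS range and the other 5 lay under it, FLX replicate 1 at 12483 only just below the 12491 of PBS replicate 5. The difference from PBS was -0.40 on the log2 scale (standard error 0.12, interval -0.65 to -0.14, edgeR adjusted p = 0.156), beside 0.30 for PBS versus Ctrl. With all 6 PBS mice it was -0.47 (adjusted p = 0.109). Over 29 alternatives the adjusted p went from 0.0436 with DESeq2 to 0.987 with only the 2 FLX mice whose totals were like those of the other groups. With those 2, FLX replicates 1 and 2, the difference itself was smaller, at -0.17.

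Gclc was between 45.2 and 106 FPKM in FLX mice (median 67.9). FLX replicates 3 and 6, at 106 and 105 FPKM, were above every Ctrl mouse, and FLX replicates 2 and 5, at 54.9 and 45.2, were below every Ctrl and PBS mouse. Against PBS the difference was -0.68 on the log2 scale (standard error 0.26, interval -1.22 to -0.14, edgeR adjusted p = 0.281). The ratio of Gclc to Gclm in FLX mice was 1.97 ± 0.493 (SD, n = 6), against 2.78 ± 1.06 in 5 PBS mice.

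Keap1 was between 7.16 and 8.80 FPKM in FLX mice (median 7.76), and 5 of 6 FLX mice exceeded PBS replicates 1 to 5. Its log2 fold change was 0.19 (standard error 0.08, interval 0.03 to 0.36, edgeR adjusted p = 0.346), and PBS replicate 6, at 7.63 FPKM, lay among the FLX mice. Srxn1 was between 19.8 and 29.1 FPKM in FLX mice (median 25.8), and differed by -0.29 on the log2 scale (interval -0.63 to 0.05, adjusted p = 0.557). Nfe2l2, Txnrd1 and Sod2 differed by -0.06 (interval -0.25 to 0.12), -0.05 (interval -0.20 to 0.11) and -0.11 (interval -0.25 to 0.04). Nqo1 and Gclm differed by -0.33 (interval -0.69 to 0.02) and -0.19 (interval -0.41 to 0.03), and Cat by 0.14 (interval -0.05 to 0.33). By the exact test on log2(FPKM + 0.1), p was 0.00649 for Keap1, 0.0195 for Gpx3, 0.0216 for Cat and 0.139 for Gclc. On that scale the median of all genes was 0.08 (log2) higher in FLX than in PBS mice, against -0.003 in the edgeR fit, where the unadjusted p of Cat was 0.149. The 5 injured tubule markers summed to 373.5 to 691.9 FPKM in FLX mice and the 8 neutrophil markers to 0.317 to 5.31, with 1 of 5 tested neutrophil genes lower than in PBS mice at an edgeR adjusted p under 0.05. All 5 red blood cell markers were lower in FLX than in PBS mice at an unadjusted p under 0.05, with a median log2 difference of -2.71. edgeR called 0 of these 5 at an adjusted p under 0.05 and DESeq2 called 5. Their sum was between 145.0 and 2129 FPKM in PBS replicates 1 to 5 (median 295.3) and between 32.25 and 294.9 in FLX mice (median 93.41). The part of these cells in the differences was not tested.

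**Figure D3:**
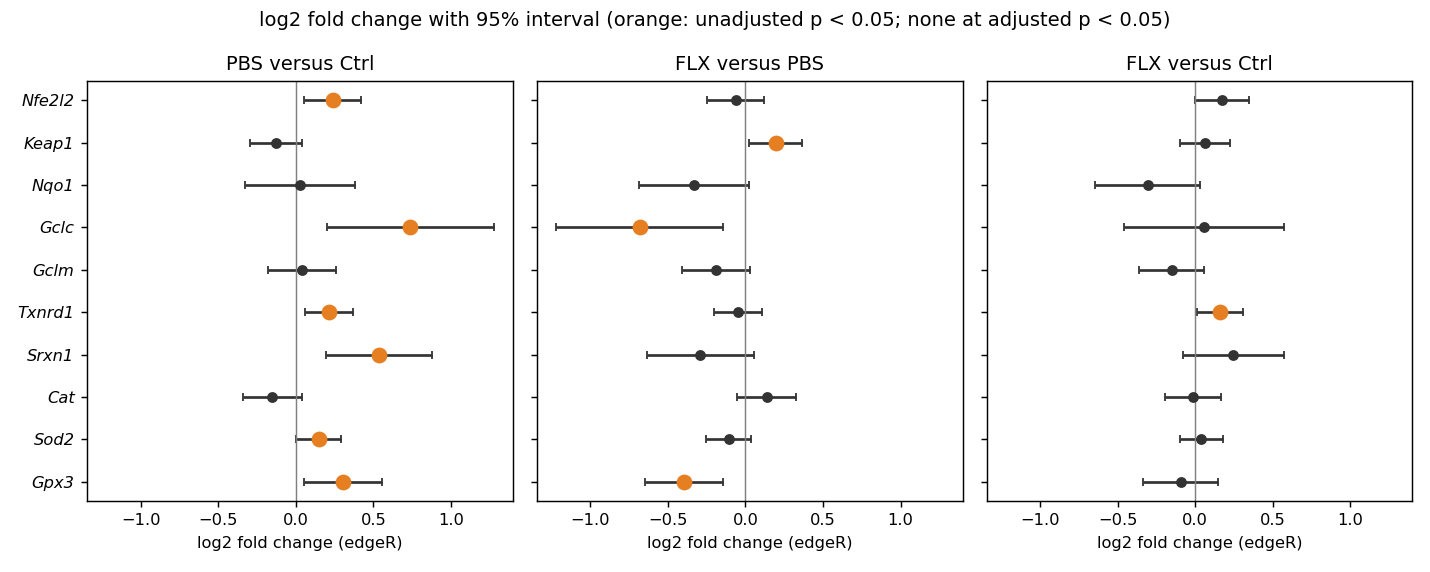
edgeR log2 fold change (horizontal axis) of each of the 10 genes with its 95% interval, in the 3 comparisons, with orange points where the unadjusted p was under 0.05. Gclc stood at 0.74 in PBS versus Ctrl, -0.68 in FLX versus PBS and 0.06 in FLX versus Ctrl.

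Between defeated mice on fluoxetine and undefeated mice, none of the 10 genes passed an adjusted p under 0.05 in FLX versus Ctrl, where 3.67% of all genes did. Of the 10, 1 had an unadjusted p under 0.05, against 20.4% of genes, and none passed the study's threshold, against 2.24%. This was Txnrd1, at 19.7 to 22.8 FPKM in FLX mice (median 22.0) and 16.8 to 19.8 in Ctrl mice. Of the FLX mice, 5 of 6 exceeded every Ctrl mouse, and the log2 fold change was 0.16 (standard error 0.07, interval 0.01 to 0.31, edgeR adjusted p = 0.203). It was called in the 4 alternatives that used limma on FPKM values (adjusted p 0.0303 to 0.0332) and in none of the other 25, where the adjusted p reached 0.467. DESeq2 called none.

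Nfe2l2 was between 19.7 and 26.4 FPKM in FLX mice (median 21.1), above every Ctrl mouse, an arrangement on the higher side that 2.67% of all genes showed. Its edgeR log2 fold change was 0.17 (interval -0.001 to 0.35, adjusted p = 0.248). The exact p on log2(FPKM + 0.1) was 0.00216 for Nfe2l2, 0.00433 for Txnrd1 and Sod2, 0.013 for Srxn1 and 0.0455 for Keap1. On the FPKM scale the median of all genes was itself 0.07 (log2) higher in FLX than in Ctrl mice, against -0.01 in the edgeR fit, so the FPKM differences of FLX mice stand against that shift. Srxn1 exceeded every Ctrl mouse in 5 of 6 FLX mice, with an edgeR difference of 0.25 (interval -0.08 to 0.58, adjusted p = 0.394). Keap1 and Sod2 differed by 0.07 (interval -0.10 to 0.23) and 0.04 (interval -0.10 to 0.18), Gclm by -0.15 (interval -0.36 to 0.06) and Cat by -0.02 (interval -0.20 to 0.16).

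Gclc and Gpx3 were near the Ctrl level in FLX mice, with log2 fold changes of 0.06 (interval -0.46 to 0.57) and -0.09 (interval -0.33 to 0.15), and the Gclc interval still holds changes of up to 1.485-fold. Nqo1 differed by -0.30 (interval -0.64 to 0.03), with FLX mice between 25.5 and 55.5 FPKM. The lowest values of Nqo1, Gclc and Gclm in the 17 mice of the fit, 25.5, 45.2 and 29.0 FPKM, were all in FLX replicate 5. That mouse also had the highest Keap1 and Sod2 of the 17, and the highest white fat marker sum, 1071 FPKM against 3.93 to 173.8 in Ctrl mice. Its part in these values was not tested.

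The other genes of the system were taken as 6 lists of 62 genes, 60 of which were tested. In PBS versus Ctrl 2 of the 60 rose and 1 fell, in FLX versus PBS 2 fell, and in FLX versus Ctrl 1 fell, where 3.81%, 0.726% and 3.67% of all genes were called. The share with an unadjusted p under 0.05 was 23.3% in PBS versus Ctrl, 8.33% in FLX versus PBS and 25% in FLX versus Ctrl, beside 17.9%, 11.1% and 20.4% of all genes.

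Among 10 NRF2 partners and regulators, 1 rose in PBS versus Ctrl. Maff, a small MAF protein that can pair with NRF2 and is induced by stress, was between 0.570 and 1.94 FPKM in Ctrl mice (median 1.45) and at 9.81, 1.17, 2.27, 11.7 and 2.68 in PBS replicates 1 to 5. PBS replicates 1 and 4, the 2 mice of the fit with the highest Gclc and Srxn1, had the highest values. Maff differed by 2.09 on the log2 scale (standard error 0.48, edgeR adjusted p = 0.0194), and the call was lost without PBS replicate 1 (adjusted p = 0.0706) or 4 (0.0758). In FLX mice Maff was between 0.883 and 1.71 FPKM (median 1.09), and it fell against PBS by 2.29 on the log2 scale (standard error 0.48, adjusted p = 0.0339). That call was lost without any 1 of 7 mice, PBS replicates 1 and 4 and FLX replicates 1, 2, 3, 5 and 6 (adjusted p 0.0531 to 0.121). Mafk, another small MAF, fell in FLX versus Ctrl by 0.61 (standard error 0.16, adjusted p = 0.0385), from 8.95 ± 0.818 to 6.23 ± 1.08 FPKM (SD, n = 6 each), with no overlap between the groups, which 0.731% of all genes showed on the lower side. Without 1 mouse the call on Mafk was lost for 9 of the 17 mice left out, the highest adjusted p being 0.0935, and it was lost with all 6 PBS mice in the fit (0.0537). In FLX versus PBS Mafk differed by -0.69 (edgeR adjusted p = 0.0632), and was called with all 6 PBS mice (-0.74, 0.0387) and with DESeq2 (0.00484).

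Of 15 detoxification and heme genes that NRF2 is known to induce, Cbr1, a carbonyl reductase, was the 1 that rose in PBS versus Ctrl and the 1 that fell in FLX versus PBS. It was between 10.6 and 19.5 FPKM in Ctrl mice (median 16.7), at 41.6, 25.03, 31.6, 29.4 and 31.1 in PBS replicates 1 to 5, and between 14.6 and 20.6 in FLX mice (median 17.2). The PBS mice lay above all Ctrl and all FLX mice, while 1.77% of all genes were higher without overlap in PBS versus Ctrl and 0.469% lower without overlap in FLX versus PBS. Cbr1 differed by 0.97 between PBS and Ctrl on the log2 scale (standard error 0.15, edgeR adjusted p = 0.00135). Between FLX and PBS the difference was -0.97 (standard error 0.15, edgeR adjusted p = 0.00579). Both calls held without any 1 mouse. PBS replicate 6 had 156 FPKM, and with it the log2 fold changes were 1.67 (adjusted p = 0.0132) and -1.67 (adjusted p = 0.0358). With only the 2 FLX mice of full depth, Cbr1 still differed by -0.80 from PBS but was not called (adjusted p = 0.473). Its neighbour in function, Cbr3, was between 1.502 and 2.83 FPKM in PBS replicates 1 to 5 and at 32.5 in replicate 6. Hmox1, the heme oxygenase, was at 15.8, 15.1, 15.7, 20.2 and 163 FPKM in PBS replicates 1 to 5, so that its mean rests on PBS replicate 5, and at 65.5 in replicate 6. It differed by 1.71 from Ctrl in PBS mice (edgeR adjusted p = 0.0648) and by 1.803 with all 6 (0.0385). All FLX mice lay above every Ctrl mouse in Hmox1, as for 2.67% of all genes on the higher side (edgeR adjusted p = 0.441). The spread in that fit includes PBS replicate 5, and without this mouse the adjusted p in FLX versus Ctrl was 0.015. Hmox1 was called in this comparison in 2 of 29 alternatives, with an adjusted p of up to 0.844. Cbr3 and Hmox1 were named after their values were seen. Ftl1, the ferritin light chain, had the lowest p of this list in FLX versus Ctrl, where it differed by -0.42 (edgeR adjusted p = 0.109), and was called with DESeq2 (0.045) and without Ctrl replicate 3 (0.00539).

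Of 12 thioredoxin and peroxiredoxin genes, 1 fell in PBS versus Ctrl. Prdx1, a cytosolic peroxiredoxin, was at 343.5 ± 48.8 FPKM in 6 Ctrl mice and 258.5 ± 19.1 in 5 PBS mice (mean ± SD). The difference on the log2 scale was -0.41 (standard error 0.10, edgeR adjusted p = 0.0335). Ctrl replicate 3, at 259 FPKM, lay among the PBS mice, and the adjusted p was 0.00163 without it. Over 29 alternatives Prdx1 was called in 15, and the call was lost without any 1 of 10 other mice, with adjusted p up to 0.0854. The lowest p of the list was that of Txnrd2 in FLX versus PBS, at -0.23 (adjusted p = 0.442), and of Txn1 in FLX versus Ctrl, at -0.31 (adjusted p = 0.0534). Txn1 was called with DESeq2 (0.0163) and without Ctrl replicate 3 (0.00313). The products of Txnrd1 and Srxn1 help to recycle and repair that of Prdx1.

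No gene of glutathione and NADPH supply (10 tested) or of the other superoxide and peroxide enzymes (7 tested) was called in any comparison of the main edgeR fit. The numbers with an unadjusted p under 0.05 were 3, 0 and 2 of the first list and 2, 0 and 3 of the second, in PBS versus Ctrl, FLX versus PBS and FLX versus Ctrl. G6pdx, the entry enzyme of the pentose phosphate pathway, differed from Ctrl by 0.62 in PBS mice (edgeR adjusted p = 0.0638) and by 0.51 in FLX mice (0.105) on the log2 scale. Every one of these mice lay above the highest Ctrl value, 9.13 FPKM. Of all genes, 1.77% were higher without overlap in PBS versus Ctrl and 2.67% in FLX versus Ctrl. With DESeq2 both differences of G6pdx were called (adjusted p = 0.0149 and 0.0397). edgeR called the first with all 6 PBS mice (0.67, adjusted p = 0.0338) and the second without PBS replicate 5 (adjusted p = 0.0411). Of 29 alternatives, 5 called the first and 3 the second, with adjusted p of up to 0.205 and 0.774. The highest FPKM of G6pdx, 21.2 and 18.3, were in PBS replicate 5 and FLX replicate 5, the mice with the most white fat marker signal. Idh1, which makes NADPH in the cytosol, differed by -0.31 in FLX versus PBS (adjusted p = 0.468). Sod1, the cytosolic superoxide dismutase, differed by -0.38 between PBS and Ctrl (edgeR adjusted p = 0.0788), and was called with DESeq2 (0.03), with all 6 PBS mice (0.045) and without Ctrl replicate 3 (0.0052). Gpx4, which reduces lipid peroxides, differed by -0.66 in FLX versus Ctrl (adjusted p = 0.108), and Ctrl replicate 3, at 297.5 FPKM, was far below the 685.3 to 1130 of the other Ctrl mice. Gpx4 was called without that mouse (difference -0.83, adjusted p = 0.00313) and with DESeq2 (0.0286). Gpx2 was at 0.213 FPKM or less in all 18 mice.

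Of the genes of the oxidant-producing NADPH oxidases, 6 were tested and reported, and edgeR called 0 of them in each comparison, with 0, 0 and 1 at an unadjusted p under 0.05 in PBS versus Ctrl, FLX versus PBS and FLX versus Ctrl. Cyba, the membrane subunit p22phox, had the lowest p in both comparisons with Ctrl. It was at 447.4 ± 112.1 FPKM in Ctrl and 332.6 ± 41.0 in FLX mice (SD, n = 6 each), with overlap between the groups and a difference of -0.52 on the log2 scale (standard error 0.17, edgeR adjusted p = 0.0921). Ctrl replicate 3, at 247.5 FPKM, lay below every other mouse, and without it the adjusted p was 0.00381. With DESeq2 on the mice of the main fit Cyba was also called in FLX versus Ctrl (adjusted p = 0.0286). PBS and Ctrl mice differed by -0.26 (edgeR adjusted p = 0.488). Nox4, the oxidase of kidney tubules, had the lowest p in FLX versus PBS, with a difference of -0.29 (edgeR adjusted p = 0.508).

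**Figure D4:**
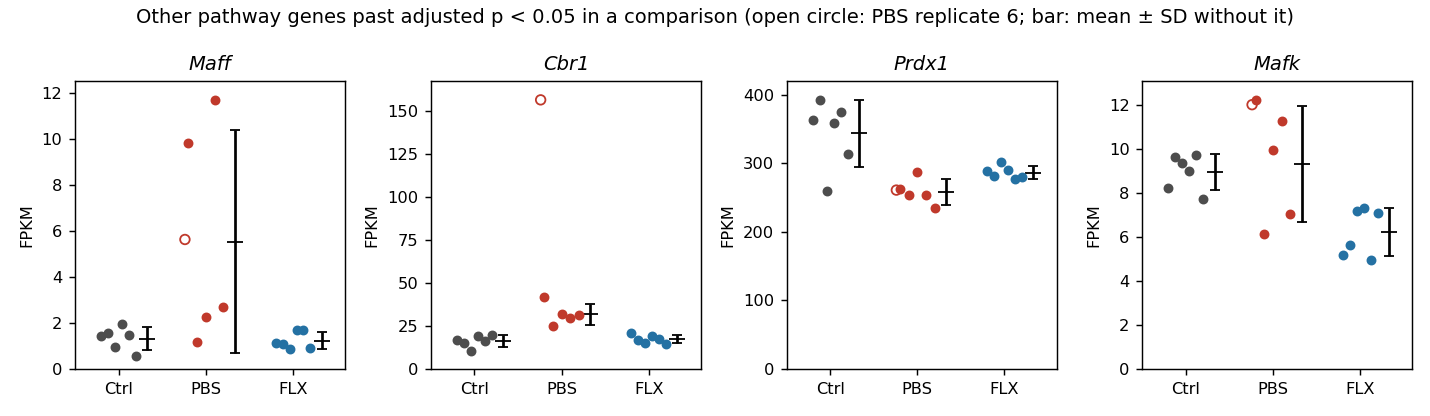
FPKM in each mouse (vertical axis, starting at 0) of the 4 other genes past an adjusted p of 0.05 in any comparison, by group, with mean ± SD beside the points and PBS replicate 6 as an open circle left out of the mean. Cbr1 was between 25.03 and 41.6 in PBS replicates 1 to 5 and at or under 20.6 in every Ctrl and FLX mouse.

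**Figure D5:**
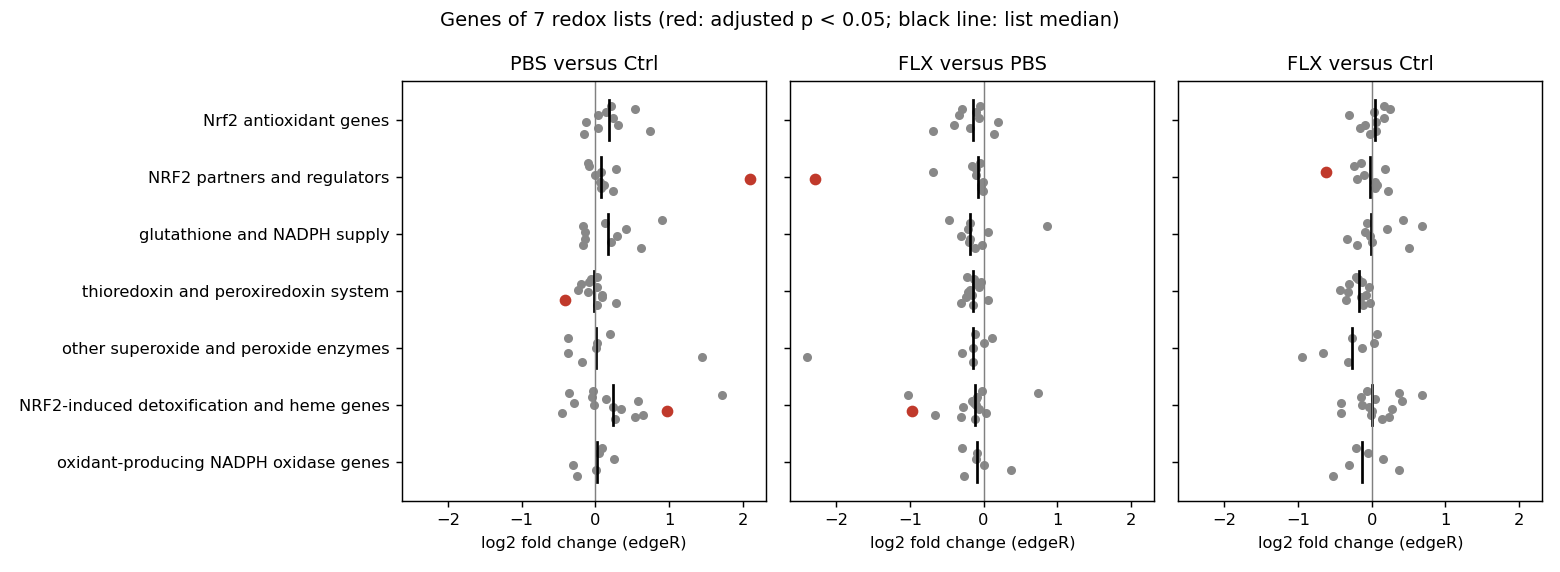
edgeR log2 fold change (horizontal axis) of each tested gene of 7 lists in the 3 comparisons, with red points at an adjusted p under 0.05 and a black line at each list's median. The median of the 10 antioxidant genes was 0.18, -0.15 and 0.05 in the 3 comparisons, and none of them is red.

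Over the 17 mice of the fit, Pearson's r of depth-scaled log2 counts between member pairs was highest for Txnrd1 with Srxn1 (0.77, Spearman's rho 0.64), then Nfe2l2 with Srxn1 (0.72, rho 0.45) and Srxn1 with Gpx3 (0.72, rho 0.60). Nfe2l2 with Txnrd1 came next at 0.69, with the highest rho of the pairs, 0.71. Gclc with Gclm gave 0.66 (rho 0.65), as did Nqo1 with Gclm (rho 0.43) and Sod2 with Gpx3 (rho 0.59). The tested gene most like each member was Cotl1 for Gpx3 (r = 0.92), Rbm47 for Gclc (0.90), Mdh2 for Sod2 (0.90), Tagln2 for Srxn1 (0.89), Prkar1a for Txnrd1 (0.89) Tbc1d13 for Cat (0.84), Gm5540 for Nfe2l2 (0.91), Gm42814 for Nqo1 (0.89), Gm9973 for Gclm (0.86) and Rpl35a-ps5 for Keap1 (0.79), each the highest of 20250 genes. These are descriptions without a test, since the mice share groups, library depth and the marker differences given above.

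Positions and neighbours bear on how the reads were counted. On GRCm38, Srxn1 (ENSMUSG00000032802) lies on chromosome 2 from 152105516 to 152109322, Gclc (ENSMUSG00000032350) on chromosome 9 from 77754535 to 77794485, Gpx3 (ENSMUSG00000018339) on chromosome 11 from 54902453 to 54910377 and Nfe2l2 (ENSMUSG00000015839) on chromosome 2 from 75675513 to 75704641. Antisense genes overlap Keap1, Gclm and Txnrd1 in the GENCODE annotation, and the strand setting of the counting is not stated, so their reads could include some of the partner's. Genes on the same strand overlap Nfe2l2 (Gm24996), Gclm (Gm6061) and Txnrd1 (Eid3). The deposited spans of Srxn1 and Sod2 differ from those of the GENCODE annotation.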

How the data were processed

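RNA of 18 right kidneys was sequenced as poly(A) libraries in read pairs. Reads were trimmed by the authors in fastp, mapped with HISAT-3N to the mouse genome GRCm38 and assembled in StringTie, and the submitters' processing notes also name cutadapt 1.9, HISAT2 2.0.4 and StringTie 1.3.4d. The deposited tables hold FPKM values and whole-number estimated counts per gene. The counting tool and its strand setting are not given in the sources used here. More genes had 4 counts than 3 (medians of 720 and 484.5 genes), so the deposited counts are taken to be estimated (expected) counts. No sample column was left unmapped.

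Counts were analysed with edgeR 4.0.16 (TMM scaling, filterByExpr, quasi-likelihood test, 1 model over 3 groups), with PBS replicate 6 left out, in 17 mice. DESeq2 1.42.0 and limma 3.58.1 on log2(FPKM + 0.1) were alternatives, together with other pseudocounts (1 and 0.01), scalings, filters, all 6 PBS mice and leaving out each mouse. The fits were tested on simulated data before use. The exact permutation tests used all arrangements of mice. FPKM intervals were not computed, and the 95% intervals are those of the edgeR fit.

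The genes, lists and markers were chosen with earlier results of these data known, and 1 item of the lists is not reported here. Named genes were all 10 members, then up to 4 genes per list and comparison at an adjusted p under 0.05, or the 1 of lowest p where none passed.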

Additional observations from a re-analysis of the deposited data

Results flagged for a closer look

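Single mice stood far from the other 5 of their group (Dixon's test at its 95% value) in 10 of 72 gene and group combinations. Chance flags about 1 in 20, and 4 of the 10 are PBS replicate 6, the mouse left out of the fit. Of the antioxidant genes, Sod2 was at 20.6 FPKM in PBS replicate 6, against 25.7 to 28.3 in the other PBS mice. Sod2 was at 30.6 FPKM in FLX replicate 5, against 25.5 to 26.5. Nfe2l2 was at 26.4 FPKM in FLX replicate 4, against 19.7 to 21.7. Among the other genes, PBS replicate 6 had 156 FPKM of Cbr1 (others 25.03 to 41.6), 3965 of Ftl1 (1815 to 2247) and 265 of Txn1 (199 to 222). Ctrl replicate 3 had 196 FPKM of Txn1 (242 to 263) and 113 of Sod1 (149 to 170). Sod1 was at 164 FPKM in FLX replicate 3 (126 to 136) and Gpx2 at 0.213 in PBS replicate 5 (0 to 0.065).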

How the results depend on the processing

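Of the 10 antioxidant genes, 0 were called by edgeR in each comparison, with 6, 3 and 1 at an unadjusted p under 0.05. In PBS versus Ctrl 1 was called with all 6 PBS mice and 1 with DESeq2 (Srxn1 both times), and 0 to 2 when single mice were left out. In FLX versus PBS DESeq2 called 1 (Gpx3), and in FLX versus Ctrl limma on log2(FPKM + 0.1), (FPKM + 1) and (FPKM + 0.01), and without the filter on FPKM, called 1 each (Txnrd1). The replicate block changed no member's call, with 0 in each comparison. Same-numbered mice of different groups did not deviate together (2 of 16 correlations over 0.1, median -0.03, and 4 of 17 mice closest to their own number). No pairing by number was thus seen, but so few correlations cannot exclude one. The block moved the genes called from 772 to 419, from 147 to 67 and from 744 to 258. It removed the calls on Maff, Prdx1 and Mafk. Over all genes, DESeq2 called 1413, 498 and 1615, fits on 2 groups 496 in PBS versus Ctrl and 95 in FLX versus PBS, and no filter on low counts 88 in FLX versus PBS and 378 in FLX versus Ctrl. limma on log2(FPKM + 0.1), (FPKM + 1) and (FPKM + 0.01) called 278, 256 and 266 in FLX versus PBS and 1226, 1239 and 1196 in FLX versus Ctrl, where all 6 PBS mice gave 354. With FLX replicates 1 and 2 only, edgeR called 0 in FLX versus PBS (1323 at an unadjusted p under 0.05, with no other tool run) and 4 in FLX versus Ctrl, with fewer mice. Without single mice, the counts were 388 to 1662, 47 to 250 and 271 to 3099, the highest each time without Ctrl replicate 3. Higher against lower calls in PBS versus Ctrl were 433 and 339 with TMM and 314 and 449 with upper-quartile scaling. They were 62 and 85 in FLX versus PBS against 211 and 67 with limma on log2(FPKM + 0.1), and 422 and 322 in FLX versus Ctrl against 997 and 229. Differences near 0 changed sign, none of them called. In PBS versus Ctrl these were Nqo1 (-0.023 with upper-quartile scaling, -0.045 to 0.11 without single mice) and Gclm (-0.077 with all 6 PBS mice, -0.0099 with upper-quartile scaling, -0.023 to 0.11 without single mice). In FLX versus PBS they were Nfe2l2 (0.038, 0.037, 0.039 and 0.038 in the 4 limma fits) and Txnrd1 (0.048, 0.046, 0.048 and 0.048 in these fits, 0.045 with FLX replicates 1 and 2 only, -0.10 to 0.00064 without single mice). In FLX versus Ctrl they were Gclc (-0.20 with FLX replicates 1 and 2 only, -0.078 to 0.18 without single mice), Gpx3 (0.14 with FLX replicates 1 and 2 only) and Cat (0.073 in all 4 limma fits, -0.050 to 0.032 without single mice). The causes were not tested. Each member had at least 2101 counts in every mouse, and the part of library depth in their differences was not tested.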
